A study of Mus musculus with 10 samples.

Results

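*Prdm1* (which encodes BLIMP1), *Prdm14* and *Tfap2c* (which encodes AP-2γ) are the 3 transcription factor genes on which specification of mouse primordial germ cells (PGC) depends. They were taken by name, by their Ensembl identifiers in the table of the ESC line E14Tg2a and by symbol in the table of the ESC line R1, and all 3 were found in both, among 27998 and 32285 genes. Single cells had been profiled by droplet-based scRNA-seq that counts unique molecular identifiers (UMIs) from the 3′ ends of transcripts, with 1 library per condition. Both lines are male mouse embryonic stem cells (ESC). The 8 E14Tg2a libraries (2782 cells) were ESC in 2i plus LIF (2i ESC), ESC in serum plus LIF (S+L ESC), epiblast-like cells after 1, 2 and 3 days in Activin A and bFGF (d1, d2 and d3 EpiLC), epiblast stem cells kept by passaging in the same factors (EpiSC), and embryoid bodies made from EpiLC after 2 and 4 days with BMP4, SCF, LIF and EGF (d2 and d4 EB). The 2 R1 libraries were d4 EB of wild-type cells (WT, 1416 cells) and of a clonal line derived from them in which the histone methyltransferases MLL3 and MLL4 carry substitutions that inactivate catalysis (dCD, 1699 cells). EB are mixtures in which PGC-like cells (PGCLC) arise beside somatic and extraembryonic-like cells, and the authors list 91 cells of d2 EB and 44 cells of d4 EB as PGCLC. These cells were chosen from clusters to which the 3 genes themselves contributed, so their levels in listed PGCLC describe that choice. Counts from 3′ ends cannot show the substitutions of dCD, and the label was not checked further.

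In the mouse embryo, BMP4 from the extraembryonic ectoderm together with WNT signals brings posterior epiblast cells to induce *Prdm1* and *Prdm14*, and *Tfap2c* follows. *Prdm1* encodes a zinc finger repressor that silences the somatic mesoderm program. *Prdm14* encodes a related zinc finger protein that acts with the corepressor CBFA2T2 on naive pluripotency, FGF signaling and DNA methylation genes, and it is also expressed in naive ESC. *Tfap2c* encodes an AP-2 factor that works downstream of *Prdm1* in germ cells and has a separate role in the trophoblast lineage. Detection of 2 of these genes in the same cell is therefore a readout of the network that single-gene levels do not give.

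*Prdm1* (ENSMUSG00000038151) lies on chromosome 10 at 44437177 to 44528501 on the minus strand, *Prdm14* (ENSMUSG00000042414) on chromosome 1 at 13113457 to 13127163 on the minus strand and *Tfap2c* (ENSMUSG00000028640) on chromosome 2 at 172549593 to 172558622 on the plus strand of GRCm38. The 250 bases before the transcription start of *Prdm1* in the RefSeq promoter set of GRCm38.p6 are shown because this gene is a member, and those of *Nanos3* and *Kit*, germ cell genes that in R1 WT were at 61.4 and 128 CPM in cells with at least 2 factors and at 2.05 and 15.2 CPM in cells with none, because both hold the palindrome GCCNNNGGC bound by AP-2 proteins. Sequences read 5′ to 3′ on the strand of the gene, with each match in capitals, and none of the windows overlaps an exon of GENCODE M21. The *Prdm1* window lies inside the annotated span of the gene, before an internal start and not at its 5′ end.
Prdm1 (chr10:44458749-44458998, minus strand): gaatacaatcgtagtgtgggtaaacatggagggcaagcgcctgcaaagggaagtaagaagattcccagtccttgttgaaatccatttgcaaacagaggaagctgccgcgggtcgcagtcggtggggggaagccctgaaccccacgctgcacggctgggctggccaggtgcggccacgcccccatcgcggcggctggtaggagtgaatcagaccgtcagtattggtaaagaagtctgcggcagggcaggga
Nanos3 (chr8:84176553-84176802, minus strand): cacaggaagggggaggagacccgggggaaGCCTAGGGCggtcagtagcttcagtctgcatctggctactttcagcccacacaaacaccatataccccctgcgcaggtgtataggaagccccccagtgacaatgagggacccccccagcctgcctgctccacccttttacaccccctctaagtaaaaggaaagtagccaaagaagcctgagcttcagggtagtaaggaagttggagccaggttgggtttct
Kit (chr5:75574737-75574986, plus strand): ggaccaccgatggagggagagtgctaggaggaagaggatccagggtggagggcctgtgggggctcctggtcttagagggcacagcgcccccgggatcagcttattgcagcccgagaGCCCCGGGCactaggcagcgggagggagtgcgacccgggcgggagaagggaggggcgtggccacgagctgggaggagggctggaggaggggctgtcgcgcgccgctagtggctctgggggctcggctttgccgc
The match began 221 bases before the start of *Nanos3* and 134 bases before that of *Kit*, and these letters do not occur in the *Prdm1* window. Of 9 germ cell genes in a list of effectors, 6 had a window. Of those, 4 (*Alpl*, *Kit*, *Nanos3* and *Fut4*) held a match on either strand in at least 1 of their windows (the motif is its own reverse complement). Over all 32851 windows, counted singly and not by gene, the share was 13.7%. A match is a string in the reference and no measurement of binding.

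The first question was how the 3 genes move from ESC through EpiLC to EB. A level is given as counts per 1000000 UMIs (CPM), taken over the pooled cells of a group, and parentheses hold its exact 95% Poisson interval, which covers counting error only. *Prdm14* was close to absent from EpiLC. Its level was 9.82 CPM (7.86 to 12.1) for 2i ESC, 8.02 CPM (6.37 to 9.96) for S+L ESC and 0.364 CPM (0.0991 to 0.931) for d1 EpiLC with 4 UMIs, and there were 0 UMIs in d2 EpiLC, d3 EpiLC and EpiSC, where a count of 0 allows up to 0.269, 0.213 and 0.235 CPM. *Tfap2c* followed the same course into EpiLC and returned in EpiSC. Its level was 23.3 CPM (20.2 to 26.7) for 2i ESC, 14.5 CPM (12.3 to 17.1) for S+L ESC, 1.45 CPM (0.832 to 2.36) in d1 EpiLC, 0.0896 CPM with 1 UMI in d2 EpiLC, 0.426 CPM (0.156 to 0.927) in d3 EpiLC and 16.5 CPM (14.4 to 18.9) in EpiSC. Of the 16 *Tfap2c* UMIs of d1 EpiLC, 7 came from a single cell. *Prdm1* had the flattest course. Its level was 6.51 CPM (4.93 to 8.43) for 2i ESC, 8.02 CPM (6.37 to 9.96) for S+L ESC, 3.82 CPM (2.75 to 5.16) in d1 EpiLC, 4.66 CPM (3.48 to 6.11) in d2 EpiLC, 1.78 CPM (1.15 to 2.62) in d3 EpiLC and 6.27 CPM (4.97 to 7.80) in EpiSC. The CPM of d1 EpiLC over that of 2i ESC gave a ratio of 0.0370 for *Prdm14* (95% interval 0.00987 to 0.0983), 0.0625 for *Tfap2c* (0.0350 to 0.104) and 0.587 for *Prdm1* (0.384 to 0.890). As each stage was 1 library, a stage cannot be told apart from its library and differences between stages were not tested.

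In EB the 3 genes were followed separately in listed PGCLC and in the other cells of each day. *Prdm1* was at 48.4 CPM (40.8 to 57.1) in d2 PGCLC and 21.8 CPM (13.8 to 32.7) in d4 PGCLC, a ratio of d4 over d2 of 0.450 (0.277 to 0.703). *Prdm14* was at 22.5 CPM (17.4 to 28.6) in d2 PGCLC and 38.9 CPM (27.9 to 52.7) in d4 PGCLC, a ratio of 1.73 (1.14 to 2.59). *Tfap2c* was at 90.0 CPM (79.5 to 102) and 87.2 CPM (70.3 to 107), a ratio of 0.969 (0.756 to 1.23). Between the days the listed cells thus had less *Prdm1*, more *Prdm14* and a *Tfap2c* ratio whose interval includes 1. EB cells picked by UMIs of at least 2 of the germ cell genes *Dppa3*, *Nanos3* and *Dnd1* were mostly the same cells, 53 of 66 at d2 and 23 of 25 at d4 being listed PGCLC, and are no separate check. They had CPM of 48.6 and 19.9 for *Prdm1*, 24.1 and 38.2 for *Prdm14* and 101 and 93.1 for *Tfap2c* at d2 and d4.

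Outside the listed PGCLC, *Prdm14* was at 2.13 CPM (1.38 to 3.15) in d2 EB and 0.117 CPM with 1 UMI in 324 cells of d4 EB. *Prdm1* was at 2.99 CPM (2.08 to 4.15) and 5.03 CPM (3.64 to 6.78). *Tfap2c* was at 12.0 CPM (10.1 to 14.2) and 36.0 CPM (32.1 to 40.3), a ratio of d4 over d2 of 2.99 (2.44 to 3.68). The d4 level came from few cells: 11 of the 324 cells had at least 10 UMIs of *Tfap2c* each, up to 56, and held 73.1% of its UMIs. All 11 had UMIs of at least 3 of 8 extraembryonic ectoderm markers (*Elf5*, *Esx1*, *Rhox6*, *Rhox9*, *Gata3*, *Wnt7b*, *Ascl2* and *Plac1*), 5 had a UMI of *Prdm1* and 0 had one of *Prdm14*.

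**Figure D1:**
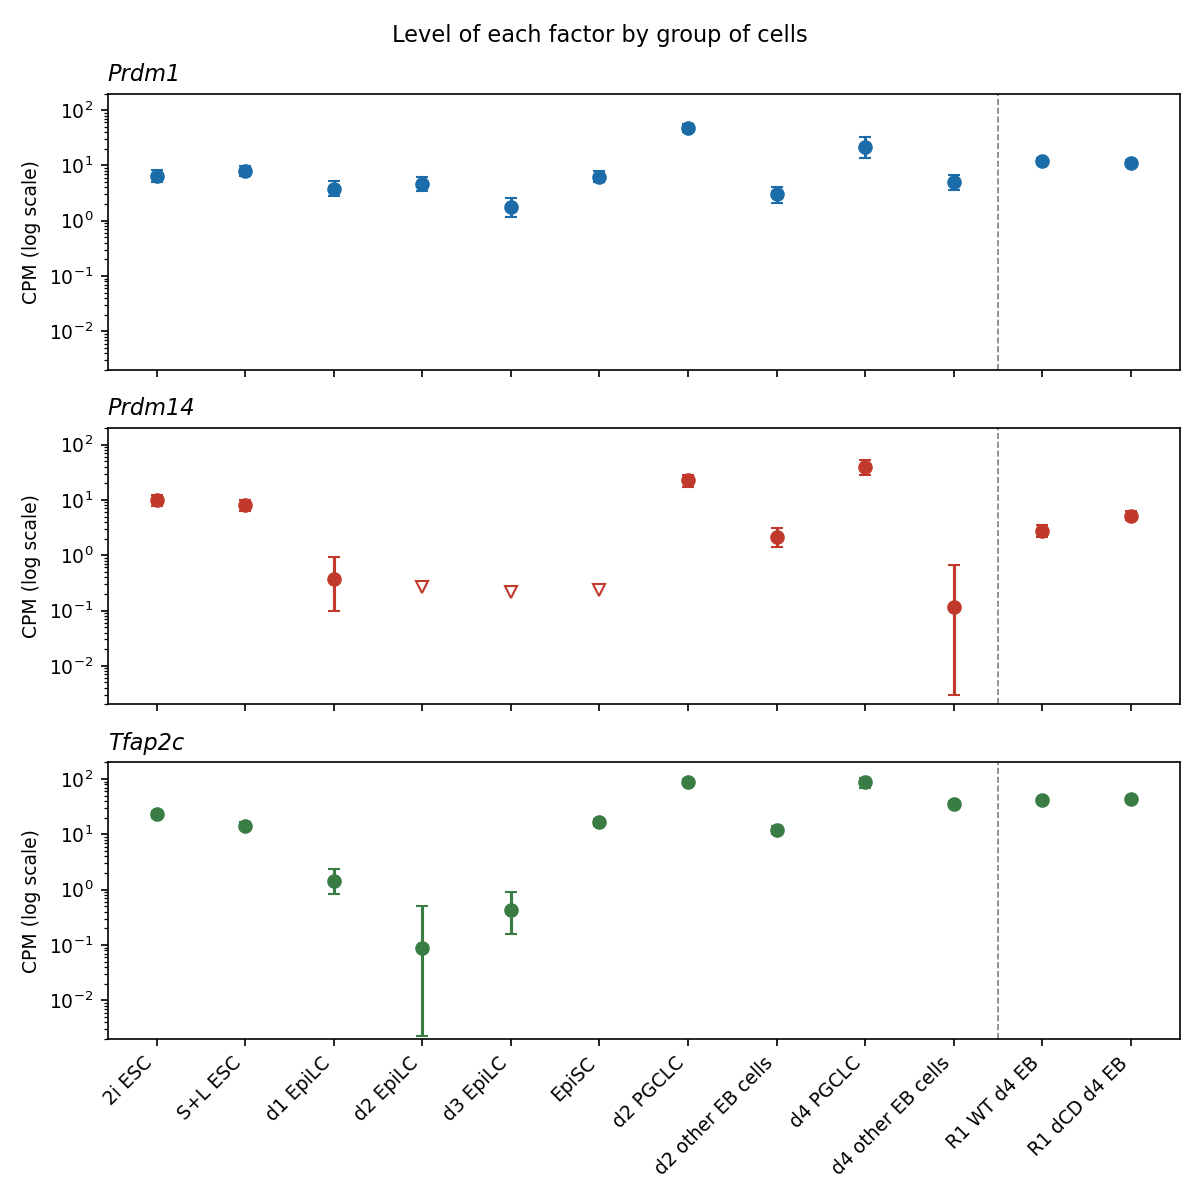
Level of *Prdm1*, *Prdm14* and *Tfap2c* in CPM on a log scale (y axis) in 12 groups of cells (x axis), with exact 95% Poisson intervals as bars and open triangles at the level that a count of 0 allows. The R1 libraries, right of the dashed line, are from another table and chemistry. *Prdm14* is at 0 in d2 EpiLC, d3 EpiLC and EpiSC, and listed PGCLC have the highest levels of all 3 genes.

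Ordered by level over the E14Tg2a groups, *Prdm1* was highest in d2 PGCLC and then in d4 PGCLC, and from S+L ESC at 8.02 CPM downward to d3 EpiLC at 1.78 CPM the intervals of neighbors in the order overlapped. For *Prdm14* the order was d4 PGCLC, d2 PGCLC, 2i ESC, S+L ESC, other d2 EB cells, d1 EpiLC and other d4 EB cells. The intervals of neighbors in it overlapped except between d2 PGCLC and 2i ESC, between S+L ESC and other d2 EB cells, and between other d2 EB cells and d1 EpiLC. *Tfap2c* was highest in d2 and d4 PGCLC, whose intervals overlapped, then in other d4 EB cells, 2i ESC, EpiSC, S+L ESC and other d2 EB cells, with overlapping intervals from EpiSC onward, and was lowest in the 3 EpiLC libraries.

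The number of cells in which a gene was detected (at least 1 UMI) separated broad low expression from expression in few cells. In 2i ESC, *Prdm1* was detected in 49 of 227 cells (21.6%, exact Clopper-Pearson 95% interval 16.4% to 27.5%), *Prdm14* in 67 (29.5%, 23.7% to 35.9%) and *Tfap2c* in 122 (53.7%, 47.0% to 60.4%). The mean number of UMIs per cell with the gene was 1.16, 1.28 and 1.67. In d2 PGCLC, *Prdm1* was detected in 62 of 91 cells (68.1%), *Prdm14* in 36 (39.6%) and *Tfap2c* in 73 (80.2%), with 2.29, 1.83 and 3.62 UMIs per such cell. In d4 PGCLC the counts were 15 (34.1%), 25 (56.8%) and 33 (75.0%) of 44 cells, with 1.53, 1.64 and 2.79 UMIs. The higher level of d2 PGCLC over 2i ESC thus held both more cells with the gene and more UMIs in each of them.

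Median depth ranged from 21658 to 36750 UMIs per cell in E14Tg2a and was 13187.5 in R1 WT and 11751 in R1 dCD. When each E14Tg2a cell was thinned to 15374 UMIs, *Prdm1*, *Prdm14* and *Tfap2c* were detected in 9.87%, 14.8% and 26.5% of 2i ESC, in 56.0%, 28.6% and 62.6% of d2 PGCLC and in 23.7%, 42.1% and 65.8% of d4 PGCLC, so that the order of d2 and d4 PGCLC for *Prdm1* and *Prdm14* was as before. Free RNA in droplets can give single UMIs. In cells with UMIs of at least 3 of 5 extraembryonic mesoderm markers (*Hand1*, *Hand2*, *Tbx4*, *Pitx1* and *Foxf1*), *Prdm14* was found in 1 of 244 cells of d4 EB (0.410%, 0.0104% to 2.26%, median depth 20040) and in 2 of 106 cells of d2 EB (1.89%, 0.229% to 6.65%). *Prdm1* was found in 6.56% and *Tfap2c* in 6.56% of these d4 EB cells, and both in 3.77% of those of d2 EB. The mesoderm marker cells of d4 EB held 20 of 66 UMIs of *Prdm1* (30.3%), 1 of 42 of *Prdm14* (2.38%) and 26 of 400 of *Tfap2c* (6.50%). The part of free RNA in these UMIs was not tested.

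The next question was how often pairs of the factors were found in the same cell. The number expected if detection of both genes were independent is the product of the shares times the number of cells, which treats all cells of a library as alike. In 2i ESC, observed and expected cells were close for each pair. *Prdm1* and *Prdm14* were both detected in 15 cells with 14.5 expected, a ratio of 1.04 (0.580 to 1.71). *Prdm1* and *Tfap2c* were in 32 cells with 26.3 expected (1.22, 0.831 to 1.72), and *Prdm14* and *Tfap2c* in 40 with 36.0 expected (1.11, 0.794 to 1.51). In S+L ESC the ratios were 1.59 (1.02 to 2.36), 1.15 (0.779 to 1.65) and 1.40 (0.961 to 1.98), and all 3 genes were found in 13 of 309 cells with 5.38 expected. After thinning, all 3 were in 1 S+L ESC with 0.920 expected, and the ratio for *Prdm1* and *Prdm14* was 0.935 from 4 cells. In EpiSC, where *Prdm14* was at 0, *Prdm1* and *Tfap2c* were both detected in 21 of 373 cells with 13.9 expected (1.51, 0.934 to 2.31). EpiSC with *Prdm1* held the primitive streak gene *T* in 33 of 49 cells (67.3%, 52.5% to 80.1%), EpiSC with *Tfap2c* in 44 of 106 (41.5%, 32.0% to 51.5%) and EpiSC with neither in 89 of 239 (37.2%, 31.1% to 43.7%), at median depths of 37724, 35256.5 and 28873 UMIs. In the EpiLC libraries, at most 1 cell per library held a pair.

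EB held many more cells with pairs than independence gives. In d2 EB, *Prdm1* and *Prdm14* were both detected in 35 of 537 cells with 8.95 expected (3.91, 2.72 to 5.44), *Prdm1* and *Tfap2c* in 62 with 22.0 expected (2.81, 2.16 to 3.61), and *Prdm14* and *Tfap2c* in 33 with 13.4 expected (2.47, 1.70 to 3.47). In d4 EB the ratios were 2.96 (1.35 to 5.62) from 9 cells, 2.26 (1.36 to 3.53) from 19 and 3.74 (2.25 to 5.83) from 19. Deeper cells show more of each gene, and with the expected number summed over 4 equal classes of UMIs per cell these ratios were 3.73, 2.44 and 2.34 in d2 EB and 3.22, 1.65 and 3.81 in d4 EB.

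**Figure D2:**
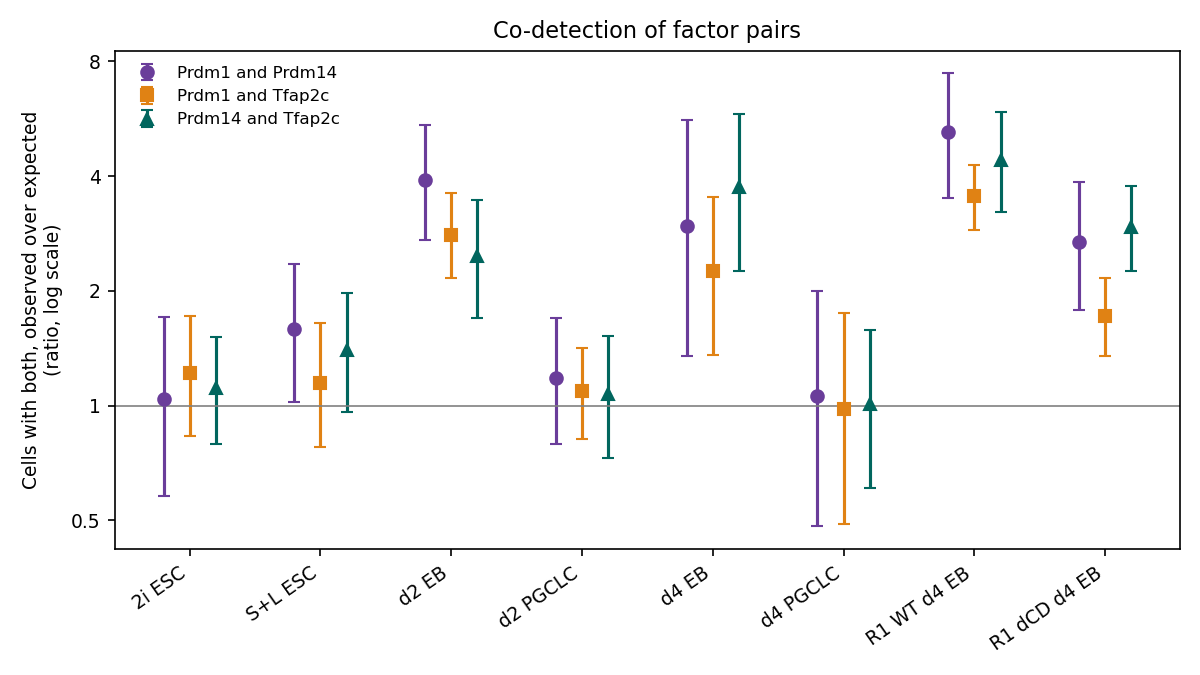
Cells with both genes of a pair, observed over expected from independent detection (y axis, log scale), in 8 groups of cells (x axis), with 95% Poisson intervals of the observed number as bars and a line at 1. Ratios in whole EB libraries lie above 1 and those of R1 dCD below those of R1 WT. In listed PGCLC the ratios lie near 1, and high detection shares limit how far they could rise.

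Within listed PGCLC the ratio of observed to expected cells has limited room above 1, since it cannot exceed the reciprocal of the larger of both detection shares. The room is least for pairs with *Tfap2c*, detected in 80.2% of d2 and 75.0% of d4 PGCLC, and larger for *Prdm1* with *Prdm14*. Nearness of the ratio to 1 is no sign of independence. In d2 PGCLC, the 3 ratios were 1.18 (0.792 to 1.70) for *Prdm1* and *Prdm14*, 1.09 (0.816 to 1.42) for *Prdm1* and *Tfap2c* and 1.07 (0.729 to 1.52) for *Prdm14* and *Tfap2c*, and in d4 PGCLC 1.06 (0.483 to 2.00), 0.978 (0.488 to 1.75) and 1.01 (0.610 to 1.58). All 3 factors were detected in 24 of 91 d2 PGCLC (26.4%, 17.7% to 36.7%, with 19.7 cells expected) and in 7 of 44 d4 PGCLC (15.9%, 6.64% to 30.1%, with 6.39 expected). At the common depth of 15374 UMIs, where detection is lower, all 3 were in 18 of 91 d2 PGCLC with 9.13 expected and in 5 of 38 d4 PGCLC with 2.49 expected, and the ratio for *Prdm1* with *Prdm14* was 1.44 (0.892 to 2.20) and 1.58 (0.581 to 3.45). The pair of *Prdm1* and *Tfap2c* without *Prdm14* was the most frequent combination at d2, with 30 cells, and was found in 4 cells at d4. The pair of *Prdm14* and *Tfap2c* without *Prdm1* was in 7 cells at d2 and 12 at d4. No factor was detected in 10 d2 PGCLC and 3 d4 PGCLC. Among the 446 other cells of d2 EB, 12 held at least 2 factors, 4 of them *Prdm1* and *Prdm14* alone and 2 all 3. Observed over expected there was 5.51 (2.02 to 12.0) for *Prdm1* and *Prdm14* from 6 cells. It was 2.20 (0.951 to 4.34) for *Prdm1* and *Tfap2c* from 8 cells, and 0.826 (0.100 to 2.98) for *Prdm14* and *Tfap2c* from 2. Among the 324 other cells of d4 EB, 8 held at least 2 factors, each *Prdm1* with *Tfap2c* (observed over expected 2.37, 1.02 to 4.68). These 8 cells had 0 UMIs of *Dppa3*, *Nanos3* and *Dnd1*. Of the extraembryonic ectoderm markers read in them, *Rhox9* and *Gata3* were each in 6 cells and *Rhox6* in 5, at 1146 CPM over all 8. *Elf5* was in 1 of the cells and *Esx1* in 0.

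**Figure D3:**
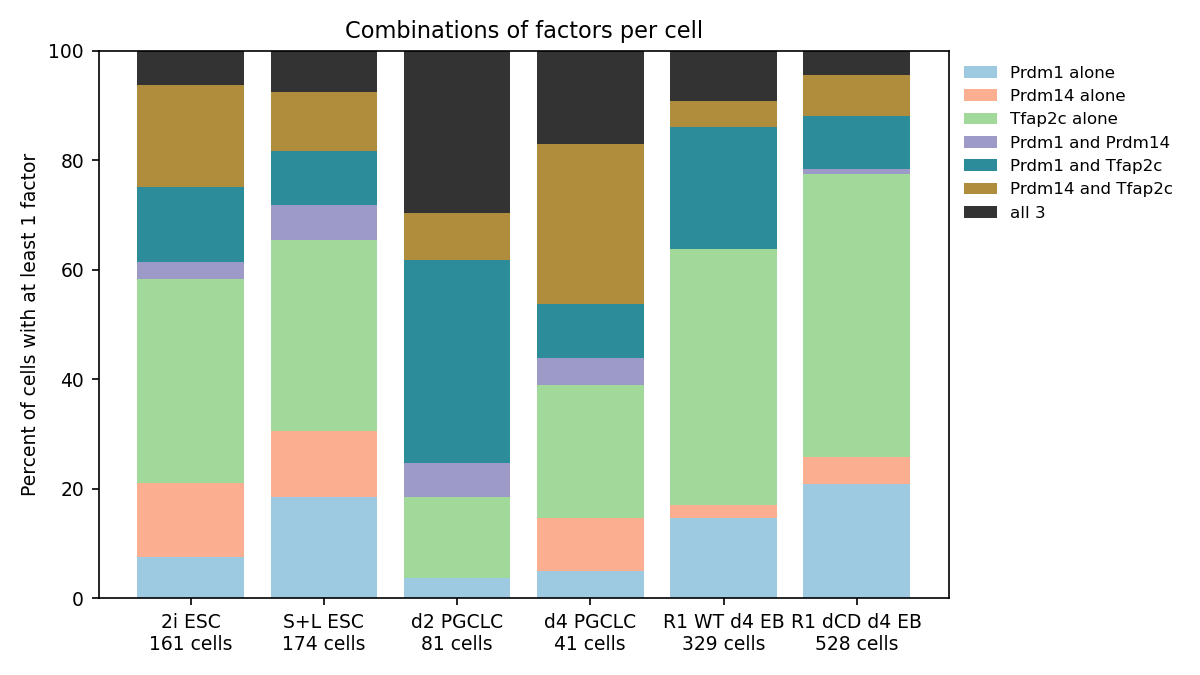
Combinations of detected factors as percent (y axis, from 0) of the cells with at least 1 factor, whose number stands under each bar, for 2 ESC libraries, listed PGCLC of d2 and d4 and the 2 R1 libraries. The teal segment of *Prdm1* with *Tfap2c* is largest in d2 PGCLC (30 cells) and the ochre segment of *Prdm14* with *Tfap2c* in d4 PGCLC (12 cells).

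The R1 libraries set the factors in WT cells beside those in dCD cells. In WT d4 EB, *Prdm1* was at 11.9 CPM (10.4 to 13.4), *Prdm14* at 2.77 CPM (57 UMIs) and *Tfap2c* at 42.2 CPM (39.5 to 45.1). In dCD d4 EB they were at 11.3 CPM (9.98 to 12.8), 5.20 CPM (4.31 to 6.22) and 44.3 CPM (41.6 to 47.1). The ratios of dCD over WT were 0.955 (0.798 to 1.14) for *Prdm1*, 1.88 (1.36 to 2.62) for *Prdm14* and 1.05 (0.958 to 1.15) for *Tfap2c*, so that 0 of the 3 genes differed 2-fold between the libraries. Among 16272 genes with 10 or more UMIs, the share that was 2-fold or more higher in dCD was 6.31%, and the share 2-fold or more lower was 3.68%. With 1 library and 1 clone per genotype the differences have no replicate check, no test was possible, and genotype cannot be told apart from clone and library.

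The share of cells with a UMI was read next. *Prdm1* was detected in 151 WT cells (10.7%, 9.10% to 12.4%) and 189 dCD cells (11.1%, 9.67% to 12.7%), *Prdm14* in 54 (3.81%, 2.88% to 4.95%) and 94 (5.53%, 4.49% to 6.73%), and *Tfap2c* in 273 (19.3%, 17.3% to 21.4%) and 387 (22.8%, 20.8% to 24.8%). With at least 2 UMIs required, the direction for *Tfap2c* turned, at 13.2% of WT and 12.0% of dCD cells. The direction for *Prdm1* turned as well, with at least 2 UMIs in 54 of 1416 WT and 50 of 1699 dCD cells. *Prdm14* was found with at least 2 UMIs in 2 WT cells and 19 dCD cells. In cells with at least 3 of the 5 extraembryonic mesoderm markers, the shares were 2.30%, 0.530% and 3.00% of 566 WT cells and 6.67%, 0% (upper bound 5.96%) and 3.33% of 60 dCD cells for *Prdm1*, *Prdm14* and *Tfap2c*, at median depths of 12884.5 and 12828 UMIs.

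The ratio of observed to expected cells was lower in dCD than in WT for each pair, a difference between 2 libraries that was not tested. *Prdm1* and *Tfap2c* were both detected in 103 WT cells with 29.1 expected (3.54, 2.89 to 4.29) and in 74 dCD cells with 43.1 expected (1.72, 1.35 to 2.16). *Prdm1* and *Prdm14* were in 30 WT cells with 5.76 expected (5.21, 3.51 to 7.44) and 28 dCD cells with 10.5 expected (2.68, 1.78 to 3.87). *Prdm14* and *Tfap2c* were in 46 WT cells with 10.4 expected (4.42, 3.23 to 5.89) and 63 dCD cells with 21.4 expected (2.94, 2.26 to 3.76). The intervals of WT and dCD overlapped for the last 2 pairs and not for the first. With expected numbers summed over the 4 depth classes, the ratios were 3.07 and 1.37, 4.60 and 2.09, and 3.98 and 2.11 in WT and dCD.

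Read as shares, 68.2% of WT cells with *Prdm1* also had *Tfap2c* (60.1% to 75.5%), against 39.2% of such dCD cells (32.2% to 46.5%). Of cells with *Tfap2c*, 37.7% in WT (32.0% to 43.8%) and 19.1% in dCD (15.3% to 23.4%) had *Prdm1*. Of cells with *Prdm14*, 55.6% in WT (41.4% to 69.1%) and 29.8% in dCD (20.8% to 40.1%) had *Prdm1*, and 85.2% (72.9% to 93.4%) and 67.0% (56.6% to 76.4%) had *Tfap2c*. At a common depth of 6831 UMIs, reached by 1366 WT and 1529 dCD cells, *Tfap2c* was found in 55.6% of WT and 27.6% of dCD cells with *Prdm1* (44.1% to 66.6% and 18.5% to 38.2%). Cells with *Prdm1* and no other factor numbered 48 in WT and 110 in dCD, and cells with *Tfap2c* alone 154 and 273. At least 2 factors were detected in 119 cells of each library, which in WT was 8.40% of the cells (7.01% to 9.97%) and in dCD a share with an interval of 5.84% to 8.32%, and all 3 in 30 and 23 cells.

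To look at the factors in cells picked without them, cells with UMIs of at least 2 of *Dppa3*, *Nanos3* and *Dnd1* were taken. *Dppa3* encodes a maternal-effect factor and PGC marker, and *Nanos3* and *Dnd1* encode RNA-binding proteins needed for PGC survival. The rule is not specific to germ cells. It also picked 20 of 280 d1 EpiLC (7.14%) and 16 of 309 S+L ESC (5.18%), at greater depth. In R1 it picked 108 WT cells (7.63%, 6.30% to 9.13%) and 78 dCD cells (4.59%, 3.65% to 5.70%), at median depths of 15632.5 and 18039.5 UMIs. In them *Prdm1* was at 55.7 CPM in WT and 30.0 CPM in dCD, a ratio of 0.539 (0.373 to 0.769). *Tfap2c* was at 224 and 164 CPM, a ratio of 0.731 (0.622 to 0.856), and *Prdm14* at 11.6 and 10.9 CPM, a ratio of 0.938 (0.465 to 1.87). *Prdm1* was detected in 52.8% of these WT cells (42.9% to 62.5%) and 34.6% of these dCD cells (24.2% to 46.2%), and *Tfap2c* in 89.8% (82.5% to 94.8%) and 73.1% (61.8% to 82.5%). At least 2 factors were found in 50.9% (41.1% to 60.7%) and 34.6% (24.2% to 46.2%). In E14Tg2a the share with at least 2 factors was 74.2% of 66 such cells of d2 EB and 68.0% of 25 such cells of d4 EB, from a different chemistry and at greater depth.

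Germ cell markers were then read in the cells with a factor, where their shares were lower in the dCD library. At least 2 of *Dppa3*, *Nanos3* and *Dnd1* were found in 37.7% of WT cells with *Prdm1* (30.0% to 46.0%) and 14.3% of dCD cells with *Prdm1* (9.63% to 20.1%). The shares were 38.9% (25.9% to 53.1%) and 12.8% (6.77% to 21.2%) for cells with *Prdm14*, and 35.5% (29.9% to 41.5%) and 14.7% (11.4% to 18.7%) for cells with *Tfap2c*. Naive pluripotency markers went the other way. At least 3 of *Esrrb*, *Klf2*, *Klf4*, *Tbx3*, *Zfp42* and *Zfp57* were found in 55.6% of WT cells with *Prdm14* (41.4% to 69.1%) and 86.2% of such dCD cells (77.5% to 92.4%), in 32.5% and 53.4% of cells with *Prdm1*, and in 56.8% and 67.4% of cells with *Tfap2c*. *Klf4*, which encodes a naive pluripotency factor, was detected in 35.2% of WT cells with *Prdm14* (22.7% to 49.4%) and 64.9% of such dCD cells (54.4% to 74.5%). These markers are not confined to naive or germ cells in EB. In E14Tg2a d4 EB, at least 3 of them were in 46.6% of the 324 cells outside the listed PGCLC and 81.8% of d4 PGCLC. *Klf4* was in 63.6% and 50.0% of these cells.

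These marker shares also differed between the whole libraries. At least 3 naive markers were in 21.1% of all WT cells and 37.1% of all dCD cells, with a summed level of the 6 markers of 531 and 746 CPM. At least 3 of the 5 extraembryonic mesoderm markers were in 40.0% and 3.53%, with summed levels of 986 and 211 CPM. At least 3 of the 8 extraembryonic ectoderm markers were in 3.88% and 8.06%, with summed levels of 202 and 322 CPM, and *Elf5* was at 0 in WT. Cells with *Tfap2c* held at least 3 of the latter in 11 of 273 WT cells (4.03%, 2.03% to 7.10%) and 68 of 387 dCD cells (17.6%, 13.9% to 21.7%). Of the 6 2-cell embryo markers, 0 had a UMI in cells with at least 2 factors of either library, while their summed level over all dCD cells was 19.4 CPM. The part of these markers in the co-detection of the factors was not tested.

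**Figure D4:**
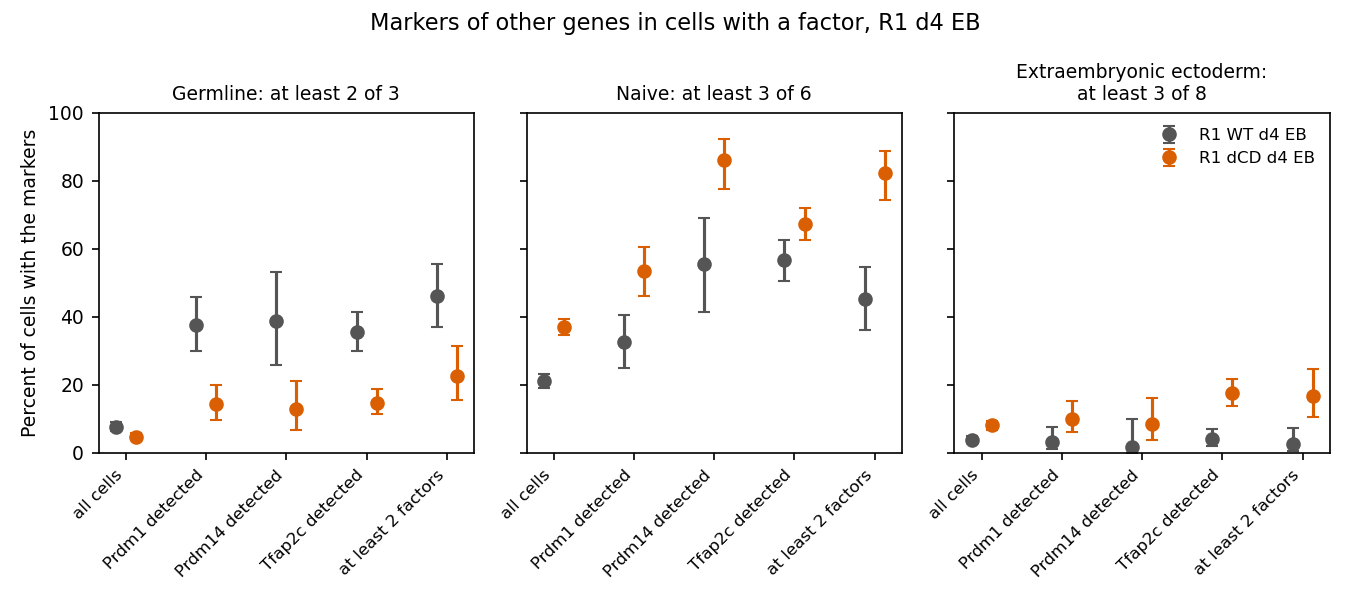
Percent of cells (y axis) with at least 2 of 3 germline markers, at least 3 of 6 naive pluripotency markers and at least 3 of 8 extraembryonic ectoderm markers among all cells, cells with each factor and cells with at least 2 factors (x axis) in R1 WT and dCD d4 EB, with exact 95% binomial intervals. Germline markers are less frequent and naive markers more frequent in dCD cells with a factor, for example 14.3% against 37.7% and 53.4% against 32.5% of cells with *Prdm1*.

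Genes of the network were then compared between the 119 WT and 119 dCD cells with at least 2 factors, whose median depths were 15846 and 18525 UMIs. Among 11448 genes with 10 or more UMIs in these cells, 11.5% were 2-fold or more higher in dCD and 5.34% were 2-fold or more lower on the scale of log2(CPM + 1), with a median log2 ratio of 0.06. Of 9 germ cell effectors, 8 could be measured, 0 were 2-fold higher and 3 were 2-fold lower, with a median log2 ratio of -0.86. *Dnd1* was at 72.8 CPM in WT and 22.7 CPM in dCD, a ratio of 0.312 (0.224 to 0.429), and *Nanos3*, one of the genes whose upstream sequence is printed above, at 61.4 and 20.2 CPM (0.329, 0.230 to 0.462). *Itgb3*, an integrin subunit of PGC, had 9 and 3 UMIs (0.283, 0.0493 to 1.13). *Kit*, the SCF receptor, was at 128 and 71.9 CPM (0.560, 0.459 to 0.683), *Dppa3* at 112 and 60.1 CPM (0.537, 0.433 to 0.665) and *Alpl*, the alkaline phosphatase of PGC and ESC, at 151 and 191 CPM (1.27, 1.10 to 1.47).

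Of 10 genes listed as pluripotency genes that PGC regain, all measured, 3 were 2-fold higher in dCD and 0 were 2-fold lower, with a median log2 ratio of 0.83. *Klf4* was at 30.2 CPM in WT and 155 CPM in dCD (5.14, 3.91 to 6.85), *Tbx3*, a T-box factor of naive ESC, at 62.4 and 202 CPM (3.24, 2.66 to 3.98) and *Tfcp2l1*, another naive factor, at 56.0 and 144 CPM (2.57, 2.07 to 3.21). Of these, *Klf4* and *Tbx3* were not higher in cells with at least 2 factors than in cells with none in d2 EB, d4 EB or R1 WT (values follow). The paper names both as ESC markers. *Pou5f1* (OCT4) was at 800 and 514 CPM (0.643, 0.596 to 0.693) and *Klf2* at 347 and 299 CPM (0.863, 0.777 to 0.960). Over all cells of the libraries 6 of the 10 were 2-fold higher in dCD, with *Nanog* at 40.0 and 116 CPM (2.91, 2.69 to 3.15), while 1 of 9 germ cell effectors was (*Alpl*, 41.6 and 101 CPM) and *Nanos3* was at 15.7 and 7.51 CPM (0.479, 0.396 to 0.578).

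Of 10 somatic mesoderm genes that BLIMP1 represses or that mark nascent mesoderm, 7 could be measured in these cells, of which 4 were 2-fold lower in dCD and 1 was higher. *Msx1* was at 115 CPM in WT and 7.99 CPM in dCD (0.0692, 0.0409 to 0.111), *Cdx2* at 31.7 and 3.36 CPM (0.106, 0.0439 to 0.222), *Msx2* at 47.6 and 14.3 CPM (0.301, 0.197 to 0.449) and *Snai1* had 10 and 2 UMIs (0.170, 0.0181 to 0.797), while *Cdx1* had 2 and 24 UMIs (10.2, 2.53 to 88.9). Of 14 genes of the BMP and WNT input, 2 were 2-fold higher and 4 lower, against 11.5% and 5.34% of all genes in these cells. *T*, which encodes brachyury, a mesoderm factor known to act upstream of *Prdm1* and *Prdm14*, was at 22.8 and 5.05 CPM (0.221, 0.107 to 0.425). *Lef1*, a WNT effector, was at 71.8 and 10.1 CPM (0.141, 0.0872 to 0.217), the BMP target *Id3* at 184 and 87.9 CPM (0.478, 0.402 to 0.568) and *Wnt3* at 15.4 and 5.47 CPM (0.356, 0.171 to 0.700). *Tcf7l1*, a WNT pathway repressor, was at 28.7 and 94.6 CPM (3.29, 2.46 to 4.47), and *Bmp4* at 24.3 and 66.5 CPM (2.74, 1.98 to 3.85). Over all cells of the libraries, 3 of the 10 mesoderm genes were 2-fold lower in dCD and 1 was higher, with a median log2 ratio of -0.59. Of the 14 BMP and WNT genes, 1 was lower there and 0 were higher.

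**Figure D5:**
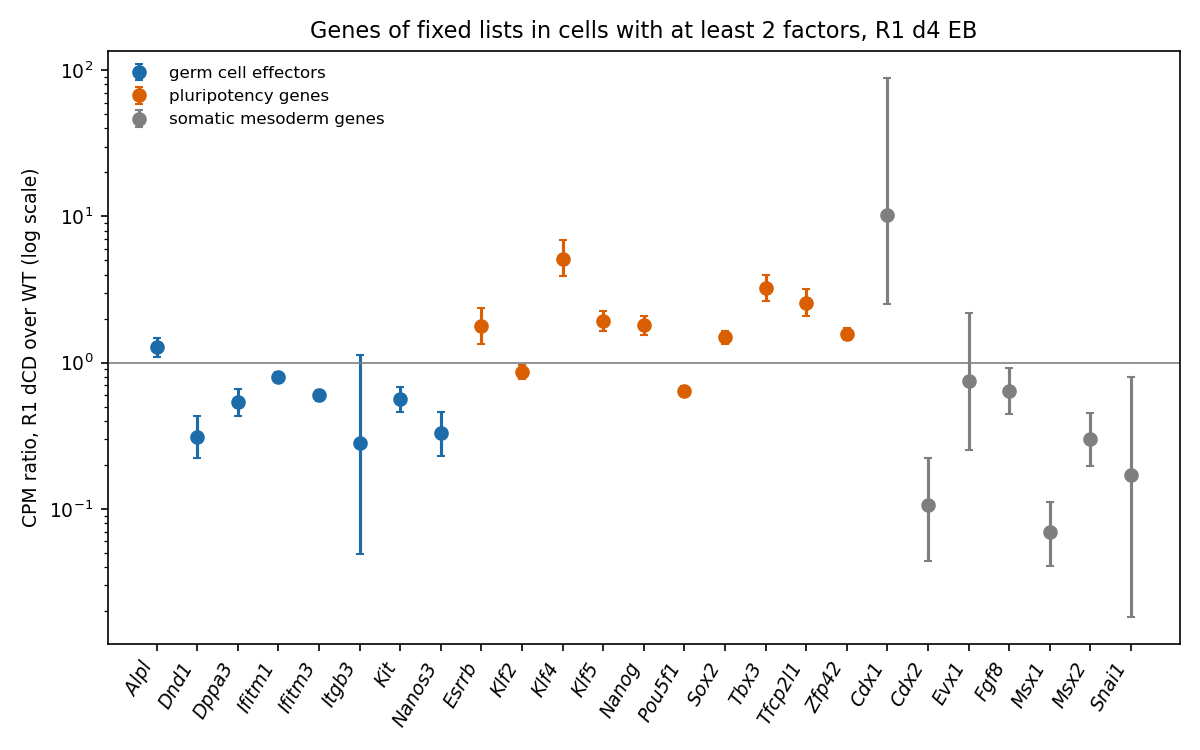
Ratio of CPM in R1 dCD over WT (y axis, log scale) for genes of 3 lists with at least 10 UMIs (x axis) in the 119 and 119 cells with at least 2 factors, with exact 95% conditional intervals and a line at 1. Of the 8 germ cell effectors 7 lie below 1, and of the 10 pluripotency genes 8 lie above 1 with *Klf4* highest among them at 5.14, and *Msx1* is lowest at 0.0692.

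Among the DNA methylation and FGF genes, 1 of 10 was 2-fold higher in these cells and 0 were lower. Over all genes in these cells the shares were 11.5% and 5.34%, so the count of higher genes is near that of any genes. *Dnmt3l*, a cofactor of de novo methylation, was at 6.44 CPM in WT and 24.0 CPM in dCD (3.72, 2.01 to 7.41), *Dnmt3b* at 28.7 and 51.3 CPM (1.79, 1.30 to 2.49) and *Uhrf1*, which brings DNMT1 to replicated DNA, at 69.9 and 128 CPM, a ratio of 1.84 from 141 and 305 UMIs. *Fgfr1* was at 72.8 and 60.1 CPM (0.826, 0.651 to 1.05). Of the 9 cofactors, 0 passed 2-fold in either direction, with *Cbfa2t2*, the partner of PRDM14, at 49.1 and 32.4 CPM (0.660, 0.484 to 0.898) and *Prmt5*, the arginine methyltransferase that binds BLIMP1, at 104 and 103 CPM (0.986, 0.817 to 1.19).

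The same lists were read within each EB library, in cells with at least 2 factors against cells with none. Of germ cell effectors with at least 10 UMIs, 7 of 8 were 2-fold higher in d2 EB (6.07% of all genes were), 7 of 8 in d4 EB (8.52%), 7 of 9 in R1 WT (9.13%) and 5 of 9 in R1 dCD (4.74%). Of the 10 pluripotency genes, 8 were 2-fold higher in each of the 4 libraries. *Klf4* was not among them in d2 EB, d4 EB and R1 WT, where its log2 ratios were -0.62, -0.34 and -0.15, and was among them in R1 dCD, where it was 1.28. *Tbx3* was at -1.29, -2.19, -2.16 and -0.33. *Dnd1* had log2 ratios of 3.60, 1.48 and 3.82 in d2 EB, d4 EB and R1 WT and 0.44 in R1 dCD, and *Ifitm3*, a surface protein of early PGC, of 1.03, 1.99, 1.56 and -0.16. *T* had log2 ratios of 2.00 in d2 EB, -0.22 in d4 EB, 3.90 in R1 WT and 0.15 in R1 dCD. Of the mesoderm genes, 3 of 10, 5 of 6, 5 of 9 and 5 of 9 were 2-fold lower (9.07%, 19.8%, 22.2% and 13.4% of all genes) and 1, 0, 2 and 2 were 2-fold higher, and *Snai1*, a repressor of epithelial genes in mesoderm, was lower in each, at -2.40, -2.69, -3.32 and -3.13.

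By the highest ratio among genes with at least 50 UMIs in the cells with at least 2 factors, d2 EB was led by *Dppa3* (103 against 0.980 CPM), *Nanos3* (25.5 against 0.327 CPM), *Fam131c*, *Lefty1* and *Gdf3*, and d4 EB by *Ascl2* (60 UMIs against 1), *Fgfbp1*, *Gm9112*, *Sox15* and *Dppa3* (120 against 2.60 CPM). *Ascl2* is a trophoblast gene. Among the leading genes of R1 WT were *BC048679* (63 UMIs against 1), *Fgf8* (36.7 against 0.396 CPM), *Dppa3* (112 against 1.45 CPM) and *Ap3b2*. In R1 dCD *Dppa3* led with a smaller ratio (60.1 against 3.74 CPM, 16.1-fold, against 77.1-fold in WT), followed by *Ly6g6e*, *Calml4*, *Krt42* and *Mobp*. *Dppa3* was thus among the first 5 genes in each of the 4 libraries.

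The other members of both gene families were read in the same groups. Among 13 other PRDM genes, 11 had at least 10 UMIs in R1, of which *Prdm16* was 2-fold higher in dCD (0.389 and 2.14 CPM, 5.51, 2.59 to 13.5) and *Prdm6*, a repressor of smooth muscle genes, 2-fold lower (38.9 and 10.6 CPM, 0.272, 0.235 to 0.315). Of all genes with that many UMIs, 6.31% were 2-fold higher and 3.68% lower in dCD. In E14Tg2a *Prdm6* was at 27.6 CPM in other d2 EB cells and 36.6 CPM in other d4 EB cells, and at 1.36 and 0 CPM in d2 and d4 PGCLC, with a limit of 2.84 CPM for the count of 0. Among 4 other AP-2 genes *Tfap2a* was 2-fold higher in dCD (12.6 and 26.4 CPM, 2.09, 1.81 to 2.43) and was at 3.75 and 7.59 CPM in d2 and d4 PGCLC, and *Tfap2b*, *Tfap2d* and *Tfap2e* stayed at or below 1.02 CPM in each group.

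Across the 10 E14Tg2a groups (6 libraries and the listed PGCLC and other cells of each EB), the genes most like each factor by Pearson correlation of log2(CPM + 1), among 12271 genes with at least 100 UMIs, were *Nanos3* (0.934), *Klf8*, *Dppa3* (0.891), *Chst10* and *Tnni3* for *Prdm1*, *Mobp* (0.963), *Nr5a2*, *Atg13*, *Ulk1* and *Zfp710* for *Prdm14*, and *Gjc1* (0.966), *Zc3hav1*, *Zfp704*, *Baz2b* and *Itpkc* for *Tfap2c*. The correlations among the factors were lower, at 0.802 for *Prdm1* and *Prdm14*, 0.758 for *Prdm1* and *Tfap2c* and 0.734 for *Prdm14* and *Tfap2c*. The 10 points come from 8 libraries and differ in depth and size, and the listed PGCLC were chosen with these genes, so the values are a description.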

How the data were processed

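Droplet-based scRNA-seq was available for 10 libraries, 1 per condition. For the E14Tg2a table the authors counted UMIs per gene and cell with Cell Ranger from 10x 3′ libraries on GRCm38 and aggregated the 8 libraries to equal mapped reads per cell. The R1 UMI counts, from a later version of the chemistry, were deposited by the authors on mm10 with cells below 2000 expressed genes left out, and their counting tool is not given in the sources used here. Values were set side by side, not compared, between the tables. Equalising mapped reads lowers the counts of deeper libraries. The number of value columns not used was 0.

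Cells of E14Tg2a were assigned to stages and to PGCLC by the barcodes that the paper's supplement lists. 8 barcodes occurred in more than 1 E14Tg2a library (16 cells). GENCODE M21 gave symbols to 27722 identifiers. Cells were thinned without replacement (seed 1) to 15374 (E14Tg2a) or 6831 UMIs (R1), set at percentile 10 of the library with the lowest depth. Doublets called by Scrublet in scanpy 1.11.5 (0.589% to 6.23% of a library) were kept. Ratios over many genes used a pseudocount of 1 CPM and at least 10 UMIs. Intervals are exact and at 95% (Poisson, conditional or Clopper-Pearson), and a count of 0 is limited by 3 counts. With 1 library per condition no test was made, and cells were not taken as replicates. Replicate cultures were not analysed here. The code (Python 3.11.15, numpy 2.4.6, scipy 1.17.1, pandas 2.3.3) was tested on simulated data. Named genes are the 3 factors, members of fixed lists, the 5 genes most like each factor and the 5 leading genes of cells with at least 2 factors, of which 1 is not reported here. Members, lists and tests were chosen with earlier results of these data known. Alternatives changed depth, the detection minimum, doublets, the minimum of genes per cell, the marker rule, the pseudocount and the UMI minimum.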

Additional observations from a re-analysis of the deposited data

How the results depend on the processing

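Of 305 values recomputed under alternatives, 220 stayed within their interval or within 1.5 times a count, 83 moved further and 2 were counted as turned in direction. Leaving out called doublets (79 values), cells under 2500 genes (35) or genes under 50 UMIs (16) moved none of them. The 2 so counted were the ratio of shares of cells with *Tfap2c* in dCD over WT, 0.909 when at least 2 UMIs were required, and observed over expected cells with *Prdm1* and *Prdm14* in S+L ESC, 0.935 after thinning. Other values crossed 1 without being so counted. *Prdm1* with *Tfap2c* in 2i ESC went from 1.22 to 0.687 after thinning. The shares of cells with *Prdm1*, 11.1% in dCD and 10.7% in WT, changed order when at least 2 UMIs were required. Requiring at least 2 UMIs gave ratios of shares of 0.772 for *Prdm1* and 7.92 for *Prdm14*. It gave observed over expected of 8.39, 4.01 and 4.11 in d2 EB (*Prdm1* with *Prdm14*, *Prdm1* with *Tfap2c*, *Prdm14* with *Tfap2c*), and 2.83 and 4.38 for the last 2 pairs in R1 dCD. In R1 WT the second pair was at 5.89. The first was at 13.1, which rests on at most 2 cells, the number of WT cells with at least 2 UMIs of *Prdm14*. The same minimum left all 3 factors in 11.0% of d2 PGCLC and 4.55% of d4 PGCLC. It left at least 2 factors in 2.97% of R1 WT and 1.53% of R1 dCD cells, which thinning put at 4.03% and 2.81%. Within 4 classes of depth, *Prdm14* with *Tfap2c* in R1 dCD was at 2.11. The share of germline-marker cells with at least 2 factors was 32.7%, 22.4%, 33.0% and 16.4% in d2 EB, d4 EB, R1 WT and R1 dCD when 1 marker was enough, and 92.3% in d2 EB and 70.4% in R1 WT when all 3 were required. With a pseudocount of 0.1 CPM, 1 AP-2 gene and 1 germ cell effector were 2-fold lower in dCD and 2 DNA methylation and FGF genes 2-fold higher. Requiring 2 naive markers in place of 3, chosen after seeing the data, moved all 6 shares. The causes were not tested, apart from the lower shares that fewer UMIs or a stricter minimum give by construction. No paired analysis was possible because each condition had 1 library. Shares of cells with *Prdm14* in R1 rest mostly on single UMIs and are limited by depth.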
